A study of Mus musculus with 9 samples.

Results

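The mitochondrial ribosomal protein genes were examined in kidneys of wild type mice of 2 ages. Members were taken by symbol, as genes named Mrpl or Mrps followed by a number and without a pseudogene ending, and the rule used no measured value. It found 77 genes among the 13081 genes of the deposited table, 48 Mrpl genes named for the large subunit and 29 Mrps genes named for the small subunit. All 77 passed the filter on low values, which asked for 10 normalised counts or more in 4 or more libraries and left 12667 genes for testing. Mrps28 passed it through the young libraries alone. The annotation holds 1 further symbol of this form, Mrpl53, which was not analysed here.

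The libraries came from whole kidney of mice of 3 months (young, n = 4) and 16 months (old, n = 5). All 9 libraries were labelled wild type, carried no labelled treatment other than age, and came from C57BL/6 animals of a single institute per the study's methods. The comparison asks which transcripts differ between young adult and ageing kidneys of unmodified mice. The labels give neither sex nor batch, and the title prefix of the libraries follows age, so differences of any other kind between the 2 sets of mice or libraries, handling and genetic background included, and differences of age cannot be told apart. Libraries were made from 3′ ends of polyadenylated RNA, so that a transcript contributes reads near its end whatever its length, and values are read counts divided by a size factor for each library (normalised counts).

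Mitochondria keep their own ribosome, the mitoribosome, which translates the few messages of the mitochondrial genome, all of them for subunits of the respiratory chain and ATP synthase. Its ribosomal RNA is transcribed inside the organelle, whereas every protein of it is encoded in the nucleus, made in the cytosol and imported. The small subunit binds the message and reads the codons, and the large subunit joins amino acids and guides the new chain to the inner membrane. In the kidney, proximal tubule cells rely on oxidative metabolism for reabsorption and are rich in mitochondria.

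The table held 4486406 to 5794960 reads in the old and 5093029 to 6355095 in the young libraries. The kidney label was borne out by 10 of 10 proximal tubule markers in the table, whose summed level was 189063 to 221389 normalised counts in the young and 127312 to 178594 in the old libraries, with 6 markers lower and 3 higher in old. The 3 listed markers of B and plasma cells (Igkc, Jchain and Ighm, with Cd79a and Ms4a1 not in the table) summed to 241 to 695 in the young and 910.4 to 3231 in the old libraries, and 3 of 3 were higher. Of 12 marker lists the sums of 8 did not overlap between the ages. Over all genes tested, every old library lay below every young one in 25.7% and above in 23.3%. Of all genes 30.5% were lower and 29.2% higher. The 4 lists with overlapping sums were principal cells (3 of 5 lower), podocytes (3 higher, 1 lower of 5), T cells (1 of 1 tested higher) and adipocytes (1 of 3 tested lower). The 4 thick ascending limb markers summed to 8696 to 9427 in the young and 11059 to 15504 in the old libraries, with 2 higher and 0 lower. Fibroblast markers went the other way, from 1501 to 1880.3 in the young to 778 to 1345 in the old libraries, with 4 of 5 lower. Markers of the distal convoluted tubule summed to 2019 to 2722 in the young and 3977 to 4850 in the old libraries (2 higher, 1 lower of 3), and those of intercalated cells to 698 to 812 and 489 to 599 (1 higher, 4 lower of 5). Endothelial markers summed to 1115 to 1152 in the young and 1393 to 1584 in the old libraries (3 higher, 1 lower of 6), and macrophage markers to 1165 to 1357 and 1361 to 1919 (2 higher, 1 lower of 7). Genes of the mitochondrial genome took 27.0% to 29.7% of the reads in the young and 35.8% to 38.1% in the old libraries, and those among them other than ribosomal RNA 23.8% to 25.3% and 12.7% to 15.0%. With mitochondrial ribosomal RNA taken out of the total, these other genes held 24.6% to 26.5% of the reads in the young and 17.0% to 19.4% in the old libraries. The part of these shifts in the results below was not tested, and in bulk tissue fewer cells of a type and less RNA per cell cannot be told apart.

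Most mitochondrial ribosomal protein genes were lower in old kidneys. Of 77 genes, 61 (79.2%) differed between the ages (termed called, for an adjusted p-value below 0.05 when limma was fitted over all genes), against 59.7% of all genes tested. They divided into 47 lower (61.0%, against 30.5% of all genes) and 14 higher in old (18.2%, against 29.2%), and 16 were not called. The median log2 fold change was -0.42 over the 77 genes, with quartiles of -0.75 and 0.13, and 0.00 over all genes. A fall of at least 1.5-fold was called in 26 of the 77 genes, and a rise of that size in 3, against 23.6% and 21.6% of all genes. At 2-fold there were 14 falls among the 77 genes (18.2%) and 0 rises, against 13.9% and 9.93% of all genes. The share of 2-fold falls was thus near that of all genes, and Mrps28, which passed the filter through the young libraries alone, is among them. Among the members the falls reached further than the rises, which ended at a log2 fold change of 0.78.

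**Figure D1:**
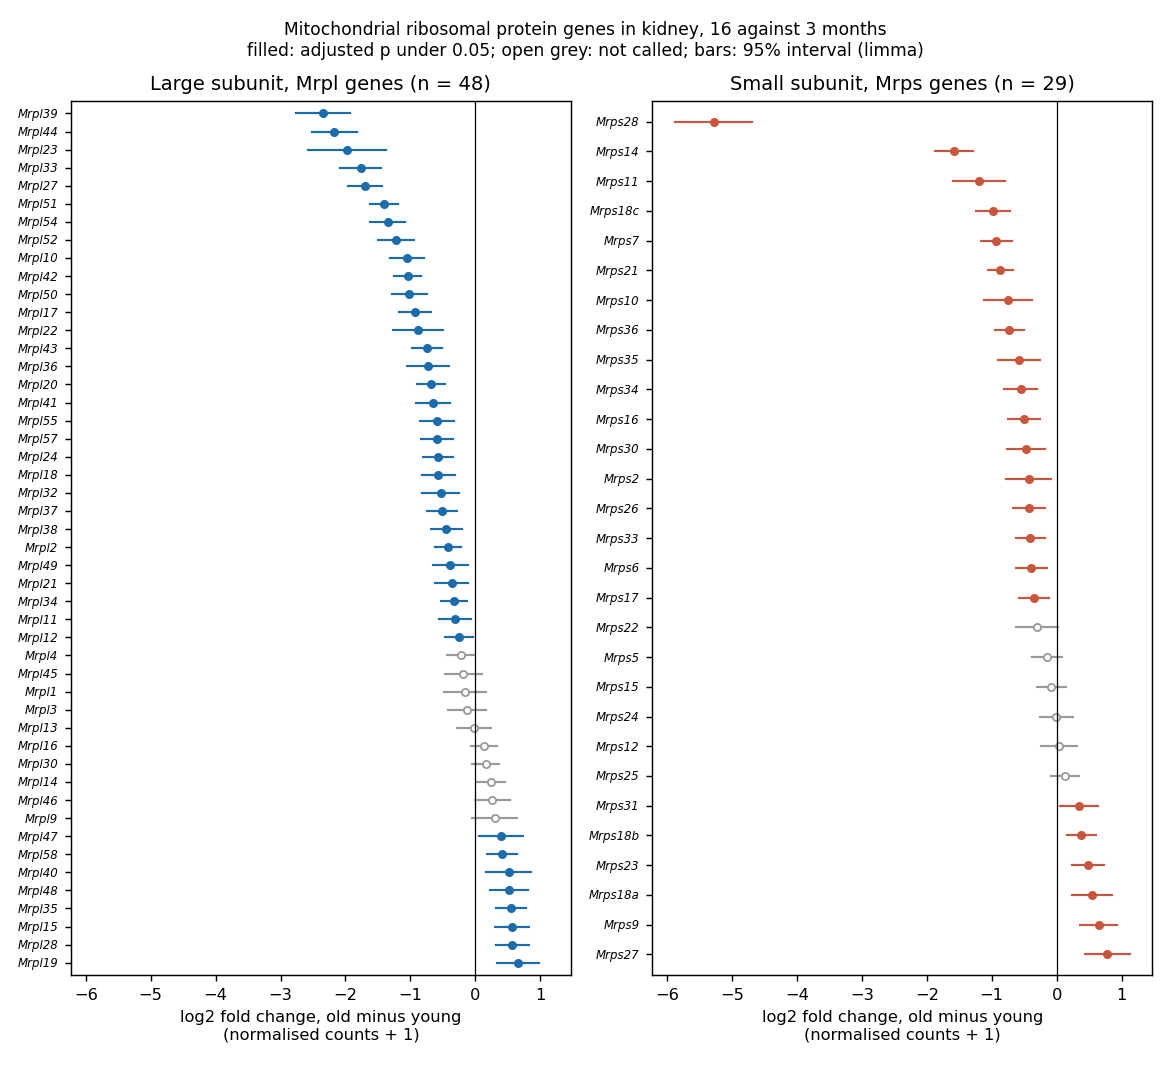
Log2 fold changes (old minus young, on log2 of normalised counts + 1) of the 48 Mrpl and 29 Mrps genes, ranked within each subunit, with points for the estimate and bars for the 95% interval from limma. Filled points are called and open grey points are not, and Mrps28 at -5.29 lies far to the left of the other genes of either subunit.

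The groups themselves separated for most members. In 44 genes every old library lay below every young library (25.7% of all genes tested did so), and in 10 every old library lay above (23.3% of all genes). The values of the other 23 genes overlapped between the ages. Of the 54 genes without overlap 53 were called, and the exception was Mrpl4. When each of the 9 libraries was left out in turn, 8 of the 61 called members lost their call at least once, and the other 53 kept it.

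The balance of falls and rises depended on the scaling. When genes of the mitochondrial genome were dropped and the remainder set to the same total in each library, the median of all genes moved to 0.13, and the members then counted 39 lower and 20 higher in place of 47 and 14 (25.1% of all genes were then lower and 35.4% higher). The median of the members was then -0.27. Removing a trend on transcript length left 30 lower and 23 higher, and 0 genes changed from a called fall to a called rise in either case.

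Of the 48 Mrpl genes 30 fell (62.5%, against 30.5% of all genes) and 8 rose (16.7%, against 29.2%), and their median log2 fold change was -0.43. Of the 29 Mrps genes 17 fell (58.6%) and 6 rose (20.7%), with a median of -0.40. With a trend on transcript length removed, the counts became 17 lower and 14 higher for Mrpl and 13 lower and 9 higher for Mrps (28.9% of all genes were then lower and 29.0% higher). Assigning proteins by where they sit in the structure, with Mrps30 and Mrps18a in the large subunit and Mrps36 in neither, gave 31 falls and 9 rises among 50 large subunit genes and 15 falls and 5 rises among 26 small subunit genes.

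Summed over the genes, large subunit transcripts made up 0.428% to 0.440% of the reads outside the mitochondrial genome in the young libraries and 0.348% to 0.369% in the old. Small subunit transcripts made up 0.265% to 0.287% in the young and 0.219% to 0.238% in the old. Neither sum overlapped between the ages. The ratio of large to small subunit reads was 1.587, 1.617, 1.596 and 1.533 in the young and 1.547, 1.553, 1.605, 1.551 and 1.540 in the old libraries. The groups overlapped through young replicate 4, the lowest library, and old replicate 3. The small subunit sum and this ratio lean on Mrps21. That gene averaged 2617 of 9923 summed normalised counts of Mrps genes in the young and 1428 of 7512 in the old libraries. A ratio without Mrps21 was not computed, so the overlap does not settle the balance of the other genes.

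Mrps28, which encodes the small subunit protein related to bacterial S1, showed the largest difference of the 77 genes. Its values were 175, 172, 168 and 175 normalised counts in the young libraries and 4.71, 2.19, 3.04, 6.53 and 2.12 in the old. The young values lay close together, and each old library held only 2 to 7 reads of the gene. Altogether 755 reads were counted in young and 18 in old kidneys (95% exact Poisson interval 10.7 to 28.4, covering counting error only), a level 45.7-fold lower in old (28.9 to 77.1). The log2 fold change of -5.29 is given as a description, since the gene passed the filter through the young libraries alone. Without it 46 of the other 76 members were lower. As at every gene here, age and other differences between the 2 sets of mice, genetic ones included, cannot be told apart. As a share of all Mrps reads, it went from 1.70% to 1.80% in the young to 0.0280% to 0.0855% in the old libraries.

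Mrps28 lies on chromosome 3 (chr3:8802146-8923918, minus strand, GENCODE vM21 on GRCm38, 3 exons in its longest coding transcript of 783 bases). It shares no sequence of 50 bases in its last 500 bases with another gene and overlaps no gene on its strand in that annotation. Its neighbour Tpd52, a gene of vesicle trafficking, was also lower, at 447 to 520 normalised counts in the young and 259 to 322 in the old libraries (log2 fold change -0.72, SE 0.10, adjusted p = 5.84e-06). Leaving Mrps28 out of the small subunit, the ratio of large to small subunit reads was 1.62, 1.65, 1.62 and 1.56 in the young and 1.55, 1.55, 1.61, 1.55 and 1.54 in the old libraries. All old libraries except replicate 3 were then below every young one, and the difference was not tested.

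The large subunit genes with the greatest falls were Mrpl39, Mrpl44, Mrpl23, Mrpl33 and Mrpl27. Mrpl39, a protein that bacterial ribosomes lack, measured 202, 206, 201 and 203 normalised counts in the young and 28.3, 63.4, 48.7, 31.7 and 32.9 in the old libraries. Its young values were nearly equal, and old replicate 2 was the highest of the old libraries yet far below any young one. The log2 fold change was -2.35 (SE 0.20, adjusted p = 1.29e-08), a level 4.95-fold lower in old.

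Mrpl44, another mitochondria-specific protein, built on a fold related to RNase III, measured 219, 252, 294 and 263 in the young and 37.7, 71.1, 55.8, 62.5 and 58.3 in the old libraries. The highest old value was thus far below the lowest young one, with a log2 fold change of -2.17 (SE 0.17, adjusted p = 3.30e-09). Mrpl27, the counterpart of the bacterial protein that reaches towards the peptidyl transferase centre, went from 256, 247, 255 and 285 in the young to 68.4, 73.3, 88.2, 89.5 and 79.6 in the old libraries (log2 fold change -1.70, SE 0.13, adjusted p = 2.36e-09). Again no old library approached the young range. Of the terminal 50-base sequences of Mrpl27 10.6% occur in other genes.

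Mrpl23, a protein near the exit of the tunnel for the new chain, measured 84.4, 84.5, 73.5 and 65.2 in the young and 36.5, 9.84, 24.3, 18.7 and 13.8 in the old libraries (log2 fold change -1.97, SE 0.29). Of the 50-base sequences in its last 500 bases 99.6% also occur in the pseudogene Mrpl23-ps1, so its reads could be split between both loci and its value is uncertain. Mrpl33, a small protein of the large subunit, went from 319, 264, 299 and 279 in the young to 81.3, 112, 81.1, 95.1 and 61.5 in the old libraries (log2 fold change -1.76, SE 0.15). It overlaps Gm43809 on the same strand and shares 30.3% of those sequences with it.

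**Figure D2:**
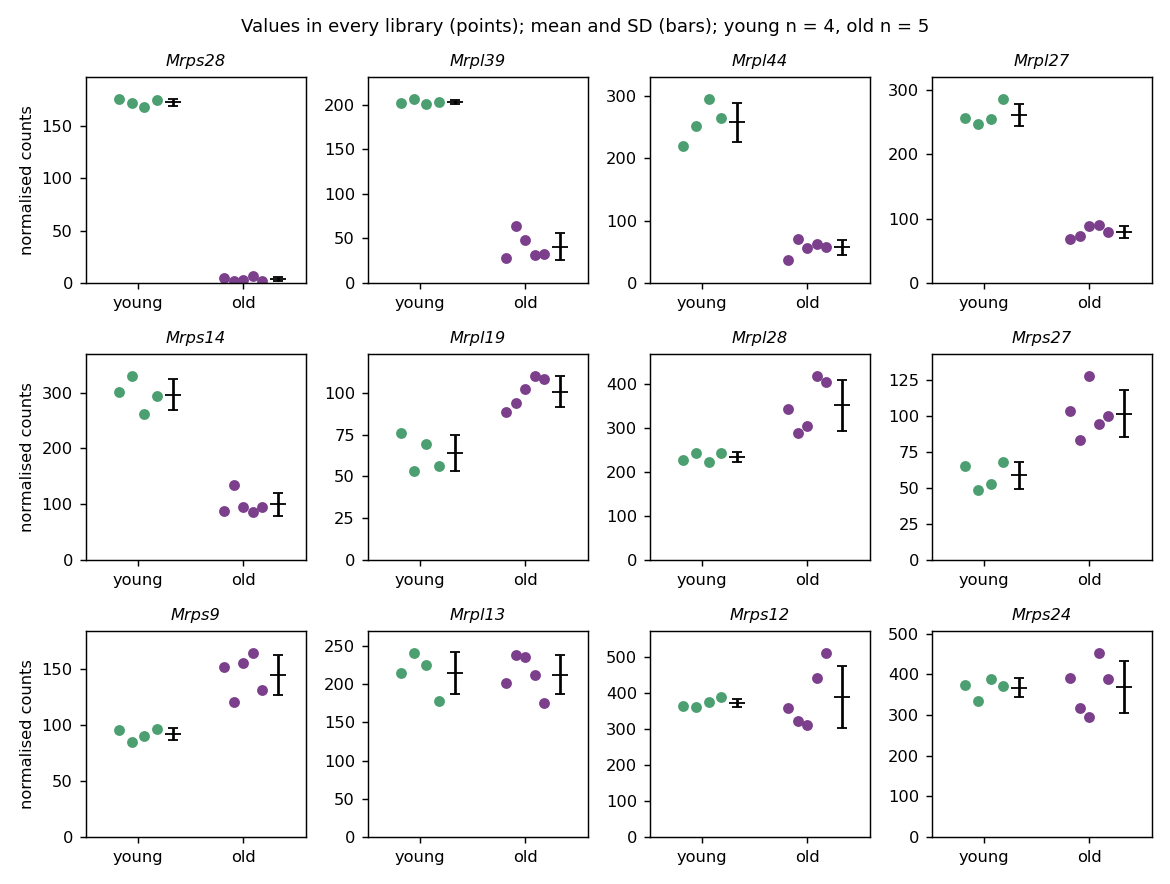
Normalised counts of 12 mitochondrial ribosomal protein genes in each library, with young libraries on the left and old on the right of each panel, points for libraries and bars for the mean and SD. The old libraries of Mrps28, Mrpl39, Mrpl44, Mrpl27 and Mrps14 all lie below the young ones, those of Mrpl19, Mrpl28, Mrps27 and Mrps9 all lie above, and those of Mrpl13, Mrps12 and Mrps24 overlap them.

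In the other direction, 8 large subunit genes rose. Mrpl19, a bacterial-type protein, measured 76.2, 53.4, 69.6 and 56.1 in the young and 88.4, 94.1, 102, 110.1 and 108 in the old libraries, with the lowest old library above the highest young one. Its log2 fold change was 0.66 (SE 0.15, adjusted p = 0.00121). Mrpl28, also with a bacterial counterpart, went from 227, 243, 223 and 244 in the young to 344, 289, 305, 419 and 405 in the old libraries (log2 fold change 0.57, SE 0.12, adjusted p = 0.000472), with the old libraries more scattered than the young. Mrpl15, a bacterial-type protein, measured 190.0, 154, 155 and 193 in the young and 278, 238, 208, 265 and 295 in the old libraries, which did not overlap (log2 fold change 0.56, SE 0.13).

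Mrpl35, also with a bacterial counterpart, went from 215, 200.2, 176 and 179 in the young to 301, 277, 305, 288 and 247 in the old libraries (log2 fold change 0.56, SE 0.11, adjusted p = 0.000289). Mrpl48, a mitochondria-specific protein, measured 218, 174, 232 and 217 in the young and 279, 229.7, 297, 315 and 405 in the old libraries. Old replicate 2 fell within the young range there, although the gene was called (log2 fold change 0.52, SE 0.14, adjusted p = 0.00398). Mrpl40 and Mrpl47 were also called higher with overlapping groups, at log2 fold changes of 0.52 and 0.40, and both calls depended on single libraries, that of Mrpl40 being lost without young replicate 1 (adjusted p = 0.0502) and that of Mrpl47 without young replicate 3 (adjusted p = 0.161), young replicate 4 (0.105), old replicate 3 (0.0564) and old replicate 5 (0.119).

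Among the small subunit genes, Mrps14, Mrps11, Mrps18c and Mrps7 had the next greatest falls after Mrps28. Mrps14, a protein of the subunit head with a bacterial counterpart, measured 301, 329, 261 and 294 normalised counts in the young and 87.2, 135, 95.3, 85.8 and 94.4 in the old libraries. Old replicate 2 stood above the other old libraries and still lay well under the young ones (log2 fold change -1.58, SE 0.14, adjusted p = 2.15e-08). Mrps11, which lies on the platform where the message leaves, went from 152, 119, 113 and 158 in the young to 51.9, 88.6, 60.8, 53.2 and 42.4 in the old libraries (log2 fold change -1.20, SE 0.19, adjusted p = 2.57e-05).

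Mrps7, an RNA-binding protein of the head that nucleates its assembly in bacteria, measured 292, 310.0, 278 and 274 in the young and 157, 168, 129.8, 156 and 147 in the old libraries. Its groups did not overlap and its log2 fold change was -0.93 (SE 0.11, adjusted p = 1.11e-06). The remaining 12 small subunit falls lay between -0.87 (Mrps21) and -0.35 (Mrps17). Of these, Mrps2 and Mrps6 had overlapping groups, and Mrps2 lost its call without young replicate 1 (adjusted p = 0.0532), young replicate 2 (0.0723), young replicate 3 (0.0774), old replicate 4 (0.0881) and old replicate 5 (0.0834).

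The 6 small subunit rises were led by Mrps27, a pentatricopeptide repeat protein that bacteria lack. It measured 65.5, 48.6, 52.9 and 67.9 in the young and 104, 83.1, 128, 94.2 and 99.7 in the old libraries, 1.73-fold higher in old (log2 fold change 0.78, SE 0.16, adjusted p = 0.000468). Mrps9, a protein of the head with a bacterial counterpart, went from 95.8, 84.5, 90.2 and 96.0 in the young to 152, 120.3, 155, 164 and 132 in the old libraries (log2 fold change 0.65, SE 0.13, adjusted p = 0.000397). The young values of Mrps9 were tight, and each old library was above them.

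Mrps23, a mitochondria-specific protein, measured 269, 250.7, 296 and 288 in the young and 367, 342, 332, 448 and 454 in the old libraries without overlap (log2 fold change 0.48, SE 0.12, adjusted p = 0.00156). Mrps31 was the weakest rise, with a log2 fold change of 0.34 (SE 0.14, adjusted p = 0.0437) and overlapping groups. Its call was lost without young replicate 1 (adjusted p = 0.0707), young replicate 3 (0.0871), young replicate 4 (0.125), old replicate 1 (0.0588), old replicate 4 (0.112) and old replicate 5 (0.0952).

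The 3 Mrps18 genes, which descend from a single bacterial S18 gene, moved in different directions. Mrps18c, the copy most like the bacterial protein, measured 201, 192, 207 and 200.1 in the young and 99.0, 120.3, 95.3, 104 and 89.1 in the old libraries, 1.97-fold lower in old (log2 fold change -0.98, SE 0.12, adjusted p = 1.84e-06). Mrps18a, whose protein sits in the large subunit, rose from 231, 183, 217 and 206 in the young to 255, 280.0, 242, 421 and 356 in the old libraries (log2 fold change 0.54, SE 0.15, adjusted p = 0.00378). Old replicates 4 and 5 were well above the other old libraries for this gene, and the lowest old value was only slightly above the highest young one.

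Mrps18b, a small subunit protein, rose from 286, 324, 295 and 292 in the young to 385, 424, 325, 441 and 378 in the old libraries (log2 fold change 0.38, SE 0.11, adjusted p = 0.00531), and old replicate 3 exceeded the highest young library by less than 1 normalised count. It shares 36.1% of its terminal 50-base sequences with the predicted gene Gm13552, and Mrps18c overlaps the predicted gene Gm43511 on the same strand. How reads were split in those places is not given in the sources used here.

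**Figure D3:**
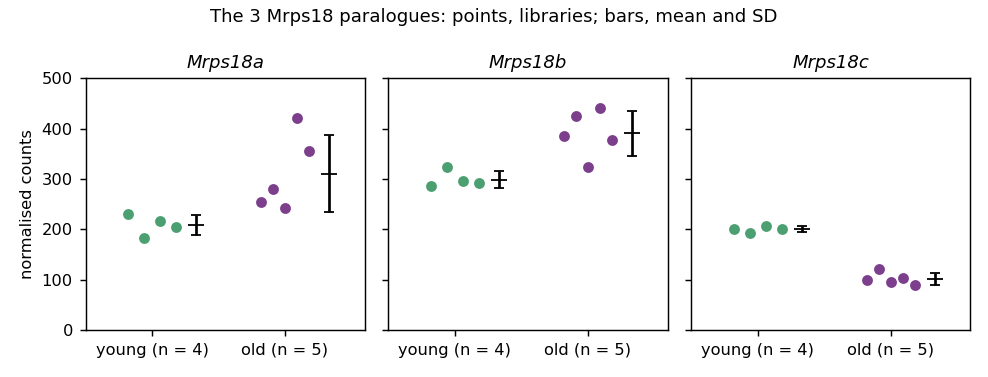
Normalised counts of Mrps18a, Mrps18b and Mrps18c in each library on a shared axis starting at 0, with points for libraries and bars for mean and SD (young n = 4, old n = 5). The old libraries lie above the young ones for Mrps18a and Mrps18b and below them for Mrps18c.

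Genes of the stalk, the flexible arm of the large subunit that recruits translation factors, were lower to different extents. Mrpl10, its base, went from 317, 288, 239 and 285 in the young to 128, 163, 124, 137 and 124 in the old libraries (log2 fold change -1.06, SE 0.12, adjusted p = 7.59e-07), with no overlap. Mrpl11, the RNA-binding partner beside it, measured 235, 215, 232 and 247 in the young and 209, 185, 155, 184 and 212 in the old libraries (log2 fold change -0.30, SE 0.12, adjusted p = 0.0326). Its call was lost without young replicate 1 (adjusted p = 0.0714), young replicate 3 (0.0675), young replicate 4 (0.0888), old replicate 3 (0.0835) and old replicate 4 (0.0531), and also with mitochondrial genes left out (adjusted p = 0.219) or the length trend removed (0.103).

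Mrpl12, which forms the arm itself and has also been linked to the mitochondrial RNA polymerase, measured 1112, 1125, 1208 and 1279 in the young and 1012, 983, 811, 1067 and 1118 in the old libraries (log2 fold change -0.25, SE 0.10, adjusted p = 0.0402, with a sign that turned to 0.09 when the trend on transcript length was removed). Old replicate 5 lay inside the young range. The call was lost without young replicate 2 (adjusted p = 0.0539), young replicate 3 (0.0932), young replicate 4 (0.119), old replicate 1 (0.0556), old replicate 2 (0.0503) and old replicate 3 (0.108), and with mitochondrial genes left out (adjusted p = 0.337) or a trend on GC content removed (0.262). Of the 3 stalk genes, then, Mrpl10 had a fall that held in each fit with a library left out.

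Mrpl58, a peptidyl-tRNA hydrolase of the large subunit that releases stalled chains, rose from 301, 235, 294 and 311 in the young to 393, 405, 318, 377 and 401 in the old libraries (log2 fold change 0.41, SE 0.11, adjusted p = 0.00409). Mrps30, a large subunit protein despite its name, fell from 155, 153, 180.4 and 145 in the young to 136, 130.2, 112, 99.8 and 93.4 in the old libraries (log2 fold change -0.48, SE 0.14, adjusted p = 0.00656). Neither gene had overlapping groups. Mrps36, now assigned to the 2-oxoglutarate dehydrogenase complex rather than to the ribosome, fell from 541, 501, 493 and 513 in the young to 344, 342, 255, 295 and 315 in the old libraries (log2 fold change -0.73, SE 0.11, adjusted p = 9.76e-06). Of its terminal 50-base sequences 32.6% also occur at other loci, the pseudogenes Mrps36-ps1 and Mrps36-ps2 among them, so its value is uncertain.

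Of all members 16 were not called. Mrps12, a protein of the decoding site, measured 363, 362, 376 and 388 in the young and 359.5, 323, 310.3, 442 and 511 in the old libraries, where old replicates 4 and 5 were above and the other old libraries below the young range (log2 fold change 0.04, 95% interval -0.24 to 0.31). Mrps5, which lines the entry channel for the message, measured 537, 514, 447 and 508 in the young and 484, 491, 355, 486 and 449.8 in the old libraries, with old replicate 3 low (log2 fold change -0.15, 95% interval -0.38 to 0.08). Mrpl45, which anchors the large subunit to the inner membrane near the tunnel exit, measured 201, 245, 204 and 194 in the young and 174, 225, 209, 185 and 142 in the old libraries (log2 fold change -0.18, 95% interval -0.47 to 0.10).

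Mrpl13, a bacterial-type protein of the large subunit, had nearly coinciding groups, at 215, 241, 226 and 177 in the young and 202, 238, 235, 212 and 176 in the old libraries (log2 fold change -0.01, 95% interval -0.28 to 0.25). Mrps24, a bacterial-type protein of the small subunit, measured 373, 333, 388 and 372 in the young and 391, 318, 294, 452 and 388 in the old libraries (log2 fold change -0.0065, 95% interval -0.26 to 0.25), and overlaps Urgcp on the same strand. The intervals of the uncalled genes had a median half-width of 0.26 on the log2 scale, so differences smaller than that were not detectable for a typical one of them.

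Mrpl4, which lies near the tunnel, was just outside the threshold. It measured 403, 412, 407 and 462 in the young and 384, 376, 366, 349 and 324 in the old libraries, which did not overlap (log2 fold change -0.23, SE 0.10, adjusted p = 0.0528), and it was called without old replicate 1 (adjusted p = 0.0455) and without old replicate 2 (0.0431). It was also called with TMM factors (0.0489), scaling to the table total (0.0291), edgeR (0.0485), DESeq2 (0.0483) and a mean of at least 100 (0.0390), and its sign turned to 0.12 with the length trend removed. Mrpl14, an RNA-binding protein at the interface between the subunits, had a log2 fold change of 0.24 (adjusted p = 0.0588) and Mrpl46, a mitochondria-specific protein, one of 0.26 (adjusted p = 0.0876). The former was called higher without old replicate 3 (adjusted p = 0.0262) or old replicate 5 (0.0348), and the latter without old replicate 3 (0.00769). Mrpl14 was also called higher with mitochondrial genes left out (0.00373), the length (8.68e-06) or GC trend removed (0.00971), DESeq2 (0.0489) and a mean of at least 100 (0.0479). Mrpl46 was so with mitochondrial genes left out (0.00761) and the length (0.000278) or GC trend removed (0.0208).

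The other 8 uncalled members were Mrpl1, Mrpl3, Mrpl9, Mrpl16, Mrpl30, Mrps15, Mrps22 and Mrps25, with log2 fold changes between -0.30 (Mrps22) and 0.30 (Mrpl9). Their groups overlapped in each case. Mrpl3, Mrpl4, Mrpl13, Mrps12, Mrps15, Mrps22, Mrps24 and Mrps25 changed sign under at least 1 alternative. With the length trend removed, 9 of the 16 uncalled members were called higher, Mrpl9, Mrpl13, Mrpl14, Mrpl16, Mrpl30, Mrpl46, Mrps12, Mrps15 and Mrps24, and Mrps5 was called lower. With mitochondrial genes left out 6 were called higher, Mrpl9, Mrpl14, Mrpl16, Mrpl30, Mrpl46 and Mrps25. With the trend on GC content removed Mrps22 was called lower (adjusted p = 0.0395).

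By origin, of 46 genes with a bacterial counterpart 27 fell and 7 rose (58.7% and 15.2%, median log2 fold change -0.36), and of 29 mitochondria-specific genes 18 fell and 7 rose (62.1% and 24.1%, median -0.45), against 30.5% and 29.2% of all genes. Mrps18a was counted with the former and Mrps18b with the latter, although both descend from S18. Within the mitochondria-specific class, 14 of 19 large subunit genes fell and 3 rose (median -0.58), and of 10 small subunit genes, Mrps18b among them, 4 fell and 4 rose (median -0.09). Within the bacterial class these were 16 and 6 of 30 (median -0.28) and 11 and 1 of 16 (median -0.47), and no difference between the classes was tested. These medians are given as descriptions, and Mrpl55 and Mrps36 were placed in neither class.

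The members are short transcripts, and length moved with the difference between the ages. Their longest coding transcripts had a median of 1339 bases, against 3063 over the table. The 47 lower members had a median of 1219 bases and the 14 higher members 1682. Of the 39 members up to the median length 26 fell and 4 rose (66.7% and 10.3%), while 46.2% and 18% of all 1540 genes in that range of length did so. Of the 38 longer ones 21 fell and 10 rose (55.3% and 26.3%), against 28.3% and 30.9% of the 10915 longer genes. Spearman's rho between length and log2 fold change was 0.31 across the 77 members and 0.28 across 12455 genes with a length, where genes of the same libraries share their depth and preparation.

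**Figure D4:**
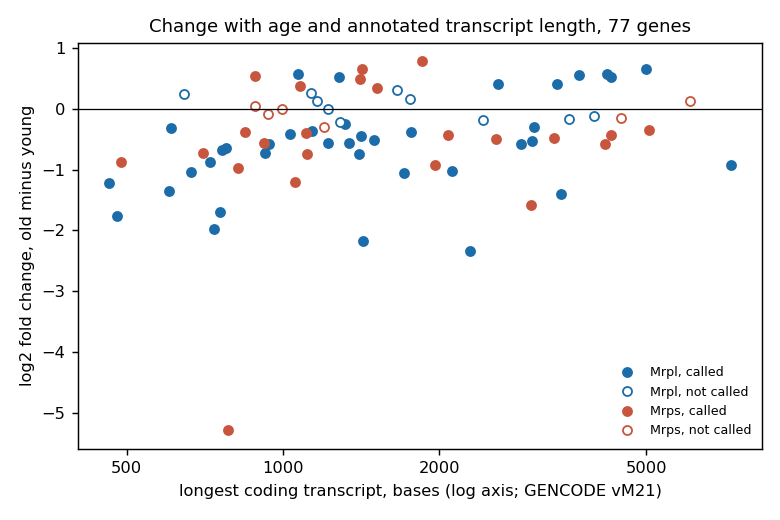
Log2 fold change (old minus young) against the length of the longest coding transcript on a log axis for the 77 genes, with blue for Mrpl, red for Mrps, filled for called and open for not called. Most points at the short end lie below 0, and the lower members have a median of 1219 bases against 1682 for the higher ones.

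With a trend on length removed from each library, the median log2 fold change of the members was -0.17 (all genes 0.02). Of the 47 falls 29 were still called lower, as were 14 of 14 rises higher, and 28.9% of all genes were then lower and 29.0% higher. Mrpl39, Mrpl44, Mrpl27 and Mrps14 were called lower, and Mrps27, Mrpl19, Mrpl28 and Mrps9 higher, in each alternative fit in which they were tested, length included.

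Shared or overlapping sequence touched 15 of the 77 genes, either as an overlap with another gene on the same strand (7 genes) or as more than 10% of terminal 50-base sequences found elsewhere (9 genes). The former were Mrpl3, Mrpl33, Mrpl51, Mrps6, Mrps18c, Mrps24 and Mrps34, and the latter Mrpl22, Mrpl23, Mrpl27, Mrpl33, Mrpl41, Mrpl42, Mrps18b, Mrps21 and Mrps36. Over the other 62 genes 35 fell and 13 rose (56.5% and 21.0%, against 30.5% and 29.2% of all genes), and the median log2 fold change was -0.36. Mrps6 overlaps the inositol transporter gene Slc5a3, which rose (log2 fold change 0.80), while Mrps6 itself fell (log2 fold change -0.39). Mrps34 overlaps Nme3, and both fell (log2 fold changes -0.56 and -0.77).

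Old libraries differed in how far they lay from the young ones. After subtracting each gene's mean over all libraries, the median of the 77 genes was 0.21 to 0.24 on the log2 scale in the young libraries and -0.07, -0.05, -0.30, -0.23 and -0.25 in old replicates 1 to 5. Among old libraries, replicate 2 came closest to the young values in 24 of the 47 lower members (51.1%), as it did in 41.1% of all lower genes. Among the 14 higher members, replicates 2 and 3 were each closest in 6, against 33.9% and 22.6% of all higher genes. Without old replicate 2, 47 members fell and 14 rose, of which 46 and 14 were among those called with all libraries.

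Of the 5 mitoribosome proteins that carry no Mrp symbol 3 fell and 1 rose (59.7% of all genes were called, 30.5% lower and 29.2% higher). Dap3, a GTP-binding protein of the small subunit, rose from 180 to 240.0 normalised counts in the young to 299 to 447 in the old libraries (log2 fold change 0.73, SE 0.13, adjusted p = 8.11e-05). Chchd1 of the small subunit fell (log2 fold change -1.36, SE 0.14), as did Aurkaip1 (-0.56) and Gadd45gip1 of the large subunit (-0.80). Ptcd3, a further pentatricopeptide repeat protein of the small subunit, had a log2 fold change of -0.48 (adjusted p = 0.0552).

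Of 23 genes for assembly and ribosomal RNA modification 11 fell (47.8%, against 30.5% of all genes) and 1 rose (4.35%, against 29.2%), and the median log2 fold change was -0.45. Mtg1, a GTPase of late large subunit assembly, went from 43.4 to 55.2 in the young to 7.43 to 21.9 in the old libraries (log2 fold change -1.71, SE 0.27). Gtpbp10, another assembly GTPase (-1.23), and Malsu1, which holds the large subunit apart from the small one during maturation (-0.90), also fell. Among the 11 falls, Rpusd4 and Mettl15 would not have passed the filter on low values by their old libraries. The rise was that of Rbfa, a small subunit assembly factor (0.38).

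Of 12 translation factors tested 3 fell and 3 rose (25% each, against 30.5% and 29.2% of all genes). Tsfm, the exchange factor of the elongation factor, fell (log2 fold change -1.44, SE 0.16), as did the translocase Gfm1 (-0.54) and Mtfmt, which formylates the initiator (-0.87). The initiation factor Mtif3 (0.92), the recycling factor Gfm2 (0.63) and the elongation GTPase Guf1 (0.71) rose. Of 17 mitochondrial tRNA synthetases 3 fell and 4 rose (17.6% and 23.5%), and Oxa1l, which inserts new chains into the inner membrane, fell (log2 fold change -0.49).

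Of 6 genes for mitochondrial transcription and message stability 4 fell (66.7%, against 30.5% of all genes) and 1 rose (16.7%, against 29.2%). Tfam, which packages mitochondrial DNA and takes part in starting its transcription, went from 167 to 225 in the young to 94.3 to 120.3 in the old libraries (log2 fold change -0.84, SE 0.13, adjusted p = 1.58e-05). Lrpprc and its partner Slirp, which stabilise mitochondrial messages, fell with log2 fold changes of -0.86 and -1.77. Tefm, the elongation factor, measured 27.2 to 43.4 in the young and 0 to 21.3 in the old libraries, and would likewise not have passed by its old libraries. Tfb2m rose (0.37) and the polymerase Polrmt was not called (-0.08, adjusted p = 0.634). Mtrfr, a listed release factor, was not analysed here. Over all 64 partner genes tested 35 were called (54.7%, against 59.7% of all genes). Of these 25 were lower (39.1% of the 64, against 30.5% of all genes) and 10 higher (15.6%, against 29.2%). The median log2 fold change of the 64 genes was -0.24. Among the 25 lower genes 3, Rpusd4, Mettl15 and Tefm, would not have passed the filter by their old libraries.

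**Figure D5:**
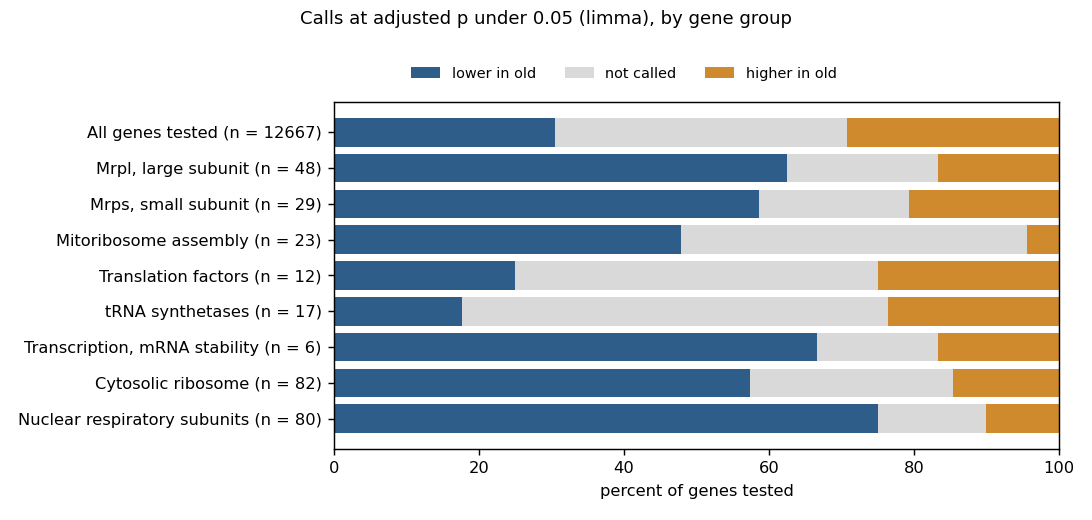
Percent of tested genes called lower in old (blue), not called (grey) and called higher in old (orange) at an adjusted p-value under 0.05 in limma, for all genes and 8 groups of genes. Lower calls make up 30.5% of all genes, 62.5% of the Mrpl genes, 58.6% of the Mrps genes and 75% of the nuclear respiratory subunits.

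Of 82 cytosolic ribosomal protein genes tested 47 fell and 12 rose (57.3% and 14.6%, median log2 fold change -0.44), and of 80 nuclear genes for respiratory subunits 60 fell and 8 rose (75% and 10%, median -0.67), against 30.5% and 29.2% of all genes. With the trend on length removed these counts became 35 and 33 for the cytosolic ribosome (median -0.15) and 42 and 14 of 77 for the respiratory subunits (median -0.30), where 28.9% of all genes were lower and 29.0% higher. These groups were not tested against the mitochondrial ribosomal protein genes.

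The ribosomal RNA of the mitoribosome ran opposite to most transcripts of its proteins. The small subunit ribosomal RNA gene mt-Rnr1 measured 33994 to 52487 normalised counts in the young and 275550.0 to 403664 in the old libraries (log2 fold change 3.08, SE 0.19, adjusted p = 1.48e-10). The large subunit gene mt-Rnr2 went from 109429 to 179874 in the young to 777980.0 to 993042 in the old libraries (log2 fold change 2.68, SE 0.22, adjusted p = 1.06e-08). Together they took 2.98% to 4.46% of the reads in the young and 21.8% to 25.4% in the old libraries. Of the 13 protein genes of the mitochondrial genome, whose messages the mitoribosome translates, 7 were called lower and 5 higher (30.5% and 29.2% of all genes were). The range ran from a log2 fold change of -2.89 for mt-Cytb, a subunit of complex III, to 3.67 for mt-Nd4l, a subunit of complex I. This complete set was counted after other values were seen, and mt-Nd4l overlaps mt-Nd4 on a shared message, so how reads were split between them is uncertain. The libraries were primed on poly(A), and mitochondrial ribosomal RNA carries short tails, so these values measure RNA that the primer captured and not the amount of ribosomal RNA in the tissue.

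Promoters were read to ask whether genes that moved together share letters near their start. RefSeq on GRCm38.p6 gave the bases from 250 before to 50 after the start for 68 of the 77 genes, and 9 genes, Mrps28, Mrpl54, Mrps35, Mrps34, Mrpl38, Mrpl4, Mrpl13, Mrpl15 and Mrpl19, had no entry. The 3 motifs searched on both strands were GCATGCG of NRF1, CCGGAAG of the ETS family that includes GABP, and AGATGGC of YY1, factors known for nuclear genes of mitochondria. At least 1 of them occurred in 54.4% of the 68 members, in 31.4% of 9837 genes of the table and in 19.4% of 27025 genes with a promoter. For ETS the shares were 36.8%, 19.9% and 9.93%, for NRF1 11.8%, 7.11% and 4.01%, and for YY1 17.6%, 8.41% and 7.31%.

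At least 1 motif was held by 59.5% of 42 lower, 58.3% of 12 higher and 35.7% of 14 uncalled members. By motif, lower and higher members held ETS in 38.1% and 50%, NRF1 in 14.3% and 8.33% and YY1 in 16.7% and 25%, and these differences were not tested. The promoters below are those of the gene with the largest fall and the largest rise in each subunit among genes with a single entry, shown so that genes of opposite direction can be read side by side. Capitals mark motif matches and everything else is in lower case, 5′ to 3′ on the strand of the gene.
Mrpl39 (log2 fold change -2.35, chr16:84735195-84735494, minus strand): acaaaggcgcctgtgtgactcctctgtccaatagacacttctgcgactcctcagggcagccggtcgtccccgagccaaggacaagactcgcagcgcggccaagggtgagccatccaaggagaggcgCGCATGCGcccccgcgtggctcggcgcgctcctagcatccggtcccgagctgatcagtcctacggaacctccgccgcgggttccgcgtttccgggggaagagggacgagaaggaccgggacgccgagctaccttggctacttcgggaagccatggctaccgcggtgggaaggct
Mrpl28 (log2 fold change 0.57, chr17:26123253-26123552, plus strand): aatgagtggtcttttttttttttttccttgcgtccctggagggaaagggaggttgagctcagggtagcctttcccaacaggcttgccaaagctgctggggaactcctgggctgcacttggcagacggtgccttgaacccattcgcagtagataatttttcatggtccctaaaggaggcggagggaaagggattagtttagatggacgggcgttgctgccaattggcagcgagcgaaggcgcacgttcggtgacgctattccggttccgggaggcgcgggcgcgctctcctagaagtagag
Mrps14 (log2 fold change -1.58, chr1:160194965-160195264, plus strand): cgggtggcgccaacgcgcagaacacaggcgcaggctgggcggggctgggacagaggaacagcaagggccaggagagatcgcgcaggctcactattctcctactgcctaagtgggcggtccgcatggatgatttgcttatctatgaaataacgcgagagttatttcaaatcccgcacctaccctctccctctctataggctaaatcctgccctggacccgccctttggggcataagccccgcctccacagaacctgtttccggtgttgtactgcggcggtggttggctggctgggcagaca
Mrps27 (log2 fold change 0.78, chr13:99344536-99344835, plus strand): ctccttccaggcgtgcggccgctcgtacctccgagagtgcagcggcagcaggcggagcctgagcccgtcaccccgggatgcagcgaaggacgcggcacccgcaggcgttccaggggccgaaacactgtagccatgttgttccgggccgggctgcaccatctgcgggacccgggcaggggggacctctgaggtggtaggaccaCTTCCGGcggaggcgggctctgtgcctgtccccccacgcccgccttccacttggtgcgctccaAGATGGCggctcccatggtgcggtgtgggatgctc

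The Mrpl39 window holds 2 overlapping matches to the NRF1 motif, which is nearly the same on both strands, at positions -124 and -123 relative to the start. The Mrps27 window holds an ETS match on the opposite strand at position -48 and a YY1 match at position 16. The Mrpl28 and Mrps14 windows hold none of the 3 motifs. Thus 1 of the 2 genes that fell and 1 of the 2 that rose held a match, and a match is a run of letters and not a measured site.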

How the data were processed

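RNA was measured in 9 kidney libraries. Per the labels, cDNA was made from 500 ng of total RNA by oligo(dT) priming (QuantSeq 3′ kit, forward) and sequenced as stranded single reads. The authors aligned reads to GRCm39 with TopHat2 2.0.10, counted them per GENCODE vM26 gene by strand with HTSeq 0.6.1 and normalised them with DESeq. The kit version differs between the labels and the study's methods, and which was used is not known. The deposited signal is thus normalised counts, reads divided by 1 size factor per library. Within a tolerance of 0.01 reads, 100% of the values were whole multiples of the smallest positive value, which was taken as 1 read.

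Groups came from the labelled ages, and replicate numbers follow listing order. The labels do not say that libraries came from separate mice, so p-values measure the spread between libraries. limma 3.58.1 (lmFit, eBayes with trend) in R 4.3.3 was run on log2(normalised count + 1) over the 12667 genes that reached 10 normalised counts in 4 or more libraries, with Benjamini-Hochberg adjustment over all of them and calls at 0.05. Fold changes on this scale understate low genes. Means, ratios and Poisson intervals were computed in Python 3.11.15 with scipy 1.17.1. In simulated data of 12222 tested genes, a small share of well-expressed genes was given a change, and 97% of the 2-fold changes were recovered. The simulation took its scatter from the young libraries alone. The old libraries scattered more, so this share does not give the power in these data.

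Count models on the recovered reads (edgeR 4.0.16, DESeq2 1.42.0), other pseudocounts, filters and scalings, removal of length or GC trends and leaving out libraries were alternatives. The members and lists were chosen with earlier results of these data known. Genes named were, in each subunit, the 5 largest falls and rises, uncalled members and members listed for their role. Mrpl22, Mrpl40, Mrpl41, Mrpl42, Mrpl47, Mrpl51, Mrps2, Mrps6, Mrps17, Mrps21, Mrps31 and Mrps34 fall outside this rule and were named after their values were seen. So do Mrpl38, Mrpl54, Mrpl55 and Mrps35, named for a missing promoter entry or class. GENCODE vM21 on GRCm38 gave lengths, positions and shared sequence, matched by symbol for 12856 genes (98.3%), and not from the build of the authors. Counts of reads carry no molecular identifiers, so intervals cover counting error only.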

Additional observations from a re-analysis of the deposited data

Results flagged for a closer look

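A library was looked at again where its gap to the nearest of its group exceeded the critical value of Dixon's test. Of 90 groups of values tested 8 did so, and chance alone flags about 1 in 20, or 4.5 of 90. On the log2 scale, old replicate 2 was high for Mrps14 (7.08, the other old libraries 6.44 to 6.59) and for Mrpl3 (7.25, the others 6.75 to 6.83). Old replicate 3 was low for Mrpl46 (7.35, the others 7.87 to 7.98) and for Mrps5 (8.48, the others 8.82 to 8.94). Old replicate 1 was high for Mrpl16 (8.65, the others 8.50 to 8.51) and for Mrps25 (8.10, the others 7.89 to 7.91). Young replicate 4 was high for Mrpl4 (8.85, the other young libraries 8.66 to 8.69). For old replicate 3, 1.61 large subunit reads were counted per small subunit read, while the remaining old libraries had ratios of 1.54 to 1.55. Of the 7 genes, Mrps14 was called and the other 6 were not.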

How the results depend on the processing

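Over 22 alternatives, the counts of members called in each direction stayed within 1.5 times those reported, except with the trend on transcript length removed, which gave 30 lower and 23 higher. The medians moved most with that trend removed (-0.17 for all members, -0.17 large, -0.23 small subunit) and with mitochondrial genes left out (-0.27, -0.29 and -0.26). For the large subunit the next largest shift was from -0.43 to -0.37, with the trend on GC content removed. That shift was smaller than the SD of the large subunit median between old libraries (0.085). The partner genes called were 19 when a mean of at least 100 was required, where fewer genes were tested. Leaving out a library gave 55 to 61 members called, 43 to 47 lower and 12 to 15 higher. edgeR called 48 lower and 14 higher, DESeq2 47 and 15.

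Signs turned in the genes that follow, and Mrpl13, Mrps15 and Mrps24 were then called higher with the length trend removed (adjusted p = 0.0232, 0.0168 and 0.00896). With the length trend removed they became 0.119 for Mrpl4, 0.343 for Mrpl13, 0.0565 for Mrps22, 0.328 for Mrps15, 0.397 for Mrps24, -0.150 for Mrps25 and 0.0920 for Mrpl12. With mitochondrial genes left out they became 0.0173 for Mrpl3, 0.129 for Mrpl13, 0.0561 for Mrps15 and 0.135 for Mrps24, and with the GC trend removed 0.0486 for Mrpl13, 0.0337 for Mrps15 and 0.117 for Mrps24. Mrps24 was 0.00486 in edgeR and 0.0121 in DESeq2, and Mrps12 was -0.0150 when scaled to the table total. Over the libraries left out, Mrpl13 ranged from -0.101 to 0.0525, Mrps24 from -0.0842 to 0.0707 and Mrps12 from -0.0669 to 0.113. The cause of these shifts was not tested. Of 42 named genes 16 changed call or sign under at least 1 alternative.

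No paired analysis was possible because the library titles share no replicate number between the ages. The median SE was 0.12 over the members and 0.18 over all genes.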
